A study of Mus musculus with 9 samples.

Results

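This account describes 39 mouse genes of the lysosome, chosen by name and function: 8 encode membrane proteins of the organelle, 10 its proteases, 11 the enzymes that take apart sugar chains, 7 the enzymes and cofactors of lipid breakdown, and 3 stand apart (acid phosphatase Acp2, progranulin Grn and the transcription factor Tfeb). They belong to 16593 genes named on the array. All 39 had a named probe, 61 probes in all, and 34 were tested, because the signal of at least 1 probe was above background (a detection p under 0.05 against the negative control beads) on all 3 arrays of at least 1 group. The other 5 (Ctsc, Ctsk, Fuca1, Sgsh and Tfeb) were above background on none of the 9 arrays with any of their probes, so no change is given for them.

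The RNA came from SVR, a transformed mouse endothelial line that grows as angiosarcoma, and was hybridised to Illumina bead arrays. Cells of 1 line were either sham treated, labelled 0 h, or given propranolol, a blocker of beta-adrenergic receptors, at 50 µM for 4 h or 24 h, with 3 arrays in each group. The labels state 50 µM and a 0 h sham, whereas the study's methods describe 100 µM against sham at 24 h, so the dose and the age of the sham culture are known only as labelled. The methods also state that RNA of 3 biological replicates was pooled for each condition before labelling, so the p-values below rest on how far arrays of a group differ, which need not include differences between cultures, and all of it is 1 cell line.

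Lysosomes are acidic compartments in which proteins, glycans and lipids are broken down by hydrolases. Soluble hydrolases reach them mainly through mannose 6-phosphate receptors, while membrane proteins such as Lamp1 and Lamp2 line the organelle and channels and transporters keep its ion balance and export the products. Many lysosomal genes carry the E-box core CACGTG in their promoters and can be switched on by the factors Tfeb, Tfe3 and Mitf, which leave the lysosomal surface for the nucleus when mTOR signalling drops. Propranolol is a lipophilic weak base, a kind of compound that collects in acidic compartments. In endothelial cells the lysosome takes part in the turnover of receptors and of lipoprotein lipids.

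Promoter sequence is shown first because several of these genes are textbook bearers of that core. RefSeq windows of the GRCm38.p6 build, running from 250 bases before to 50 bases after an annotated start, were at hand for 35 of the 39 genes (41 windows; none for Asah1, Ctsb, Ctsh and Galns). CACGTG, which reads the same on both strands, was found in 11 of these windows, in 11 genes, or 26.8% of the windows. It was found in 7.15% of all 32851 windows and in 10.0% of the 8484 windows of genes tested on the arrays. The longer form TCACGTG, which contains the core and was searched on both strands, was in 10 of the 41 windows (24.4%), against 3.77% of all windows and 5.94% of those of tested genes. Because several members were known bearers of the core, a higher share could be foreseen from the choice of genes, and no test was made. The 11 stretches below show, in capitals, the core nearest the annotated start of its window, with 10 bases on either side. Each is read 5′ to 3′ on the gene's own strand.
Mcoln1 (chr8:3500464-3500489, plus strand, 45 bases before the start): gcgccccgctCACGTGaccgcggcgc
Lamp1 (chr8:13159136-13159161, plus strand, 15 bases before): gtgaccacatCACGTGcggaacggag
Cln3 (chr7:126583342-126583367, minus strand, 121 bases before): cgggtactgtCACGTGacccccaacc
Ctsa (chr2:164833768-164833793, plus strand, 5 bases after): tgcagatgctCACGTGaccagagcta
Ctsd (chr7:142387910-142387935, minus strand, 98 bases before): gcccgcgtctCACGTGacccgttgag
Ctsl (chr13:64370741-64370766, minus strand, 236 bases before): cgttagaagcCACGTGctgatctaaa
Lgmn (chr12:102439126-102439151, minus strand, 49 bases before): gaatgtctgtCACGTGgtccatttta
Glb1 (chr9:114401020-114401045, plus strand, 48 bases before): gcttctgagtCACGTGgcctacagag
Gaa (chr11:119267813-119267838, plus strand, 140 bases before): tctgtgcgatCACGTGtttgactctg
Naglu (chr11:101070011-101070036, plus strand, 73 bases before): accttcaggtCACGTGgcccgaggtc
Sgsh (chr11:119355524-119355549, minus strand, 29 bases before): gcctgccgtgCACGTGaccgtgggga
The cores shown lie between 236 bases before the annotated start of their window (Ctsl) and 5 bases after it (Ctsa), and 5 of the 11 windows held more than 1 core. For Cln3, Ctsa and Lgmn that start lies inside the gene, and the window at the outer end of the gene held no core. For Ctsl the start used also lies inside the gene, and so does the core. A match of letters is a description of the window and says nothing of which factor, if any, bound it in these cells.

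Lamp1 had the window with the most cores, 4, and is printed whole with them in capitals (chr8:13158911-13159210, plus strand). It is followed by Lipa (chr19:34527425-34527724, minus strand) and Gpnmb (chr6:49036268-49036567, plus strand), the members with the largest changes below, whose windows held none.
Lamp1: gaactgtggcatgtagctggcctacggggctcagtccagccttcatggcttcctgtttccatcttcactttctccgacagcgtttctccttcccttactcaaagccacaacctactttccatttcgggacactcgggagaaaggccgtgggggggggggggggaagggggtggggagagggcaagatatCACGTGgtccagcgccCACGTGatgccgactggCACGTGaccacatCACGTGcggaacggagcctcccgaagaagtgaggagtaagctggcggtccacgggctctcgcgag
Lipa: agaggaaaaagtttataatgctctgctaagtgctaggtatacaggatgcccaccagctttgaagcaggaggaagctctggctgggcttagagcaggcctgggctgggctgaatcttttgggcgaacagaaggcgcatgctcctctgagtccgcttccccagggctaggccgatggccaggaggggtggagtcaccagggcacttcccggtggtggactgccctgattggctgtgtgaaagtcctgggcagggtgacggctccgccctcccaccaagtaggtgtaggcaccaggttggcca
Gpnmb: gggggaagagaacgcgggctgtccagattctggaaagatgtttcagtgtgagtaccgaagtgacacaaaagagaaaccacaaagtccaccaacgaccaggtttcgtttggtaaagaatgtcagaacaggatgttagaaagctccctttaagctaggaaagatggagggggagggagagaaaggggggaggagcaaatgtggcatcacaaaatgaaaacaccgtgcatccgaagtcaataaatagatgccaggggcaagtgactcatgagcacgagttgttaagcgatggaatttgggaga

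The arrays were alike in quality. Between 11454 and 12245 of 25697 probes were above background per array, the mean signal ran from 306.5 to 387.7, and log2 signals of arrays of 1 group correlated at 0.997 to 0.998 against 0.975 to 0.977 between 24 h and sham. The third 24 h array lay alone on a second BeadChip, and on the first chip the arrays of a group were neighbours, so that the effects of chip position and of group cannot be told apart. Endothelial markers were present and moved with the treatment: 13 of 14 had a probe, 10 were tested and those 10 were called higher at 24 h. Without the background step 9 were called higher. The shares over all genes were 13.6% and 7.69%. The list's summed signal was 8265 to 8391 in sham, 7609 to 8242 at 4 h and 18360 to 19818 at 24 h. Of 13 markers of macrophages and other myeloid cells, which are rich in lysosomes, 12 had a probe and only Cd14 was tested; Adgre1, Cybb, Itgam, Lyz2, Mrc1, Ptprc, Spi1 and Tyrobp were above background on no array, and the list's summed signal was 1059 to 1153 in sham, 1110 to 1150 at 4 h and 1184 to 1238 at 24 h. One of the 10, Vwf, was above background only on the 24 h arrays and so entered the test through the group where it is high; its change is only a bound, at least 1.5-fold. The part of the endothelial shift in the results below was not tested. In bulk RNA a change in the number of cells of a kind and a change in RNA per cell cannot be told apart.

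At 24 h 17 of the 34 tested lysosomal genes were higher than in sham and none were lower. A gene was called when its adjusted p (limma across all 9 arrays, Benjamini-Hochberg over all tested probes) was under 0.05 and its change at least 1.5-fold, and a gene with several probes was read from the brightest. These 17 make up 50.0% of the members, where 13.6% of all 7969 tested genes were called higher and 11.1% lower. The median log2 change was 0.58 over the members and -0.02 over all genes. At a change of at least 2-fold the count was 10 higher and 0 lower (all genes, 5.51% higher and 2.59% lower). Of those 10, Ctsa, Glb1, Hexa and Mcoln1 were under 2-fold without the background step (log2 0.95, 0.93, 0.95 and 0.80). In the authors' normalized table Neu1, Asah1, Psap, Hexa, Mcoln1 and Grn were under it (0.95, 0.92, 0.95, 0.89, 0.92 and 0.89). With the adjusted p alone it was 25 higher, 2 lower and 7 that did not pass, where 30.4% and 30.5% of all genes passed in each direction. The 3 arrays at 24 h lay wholly above the 3 sham arrays for 26 members and wholly below for 2, compared with 33.1% and 33.3% of all genes. Without the array on the second chip, 16 members were called higher.

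**Figure D1:**
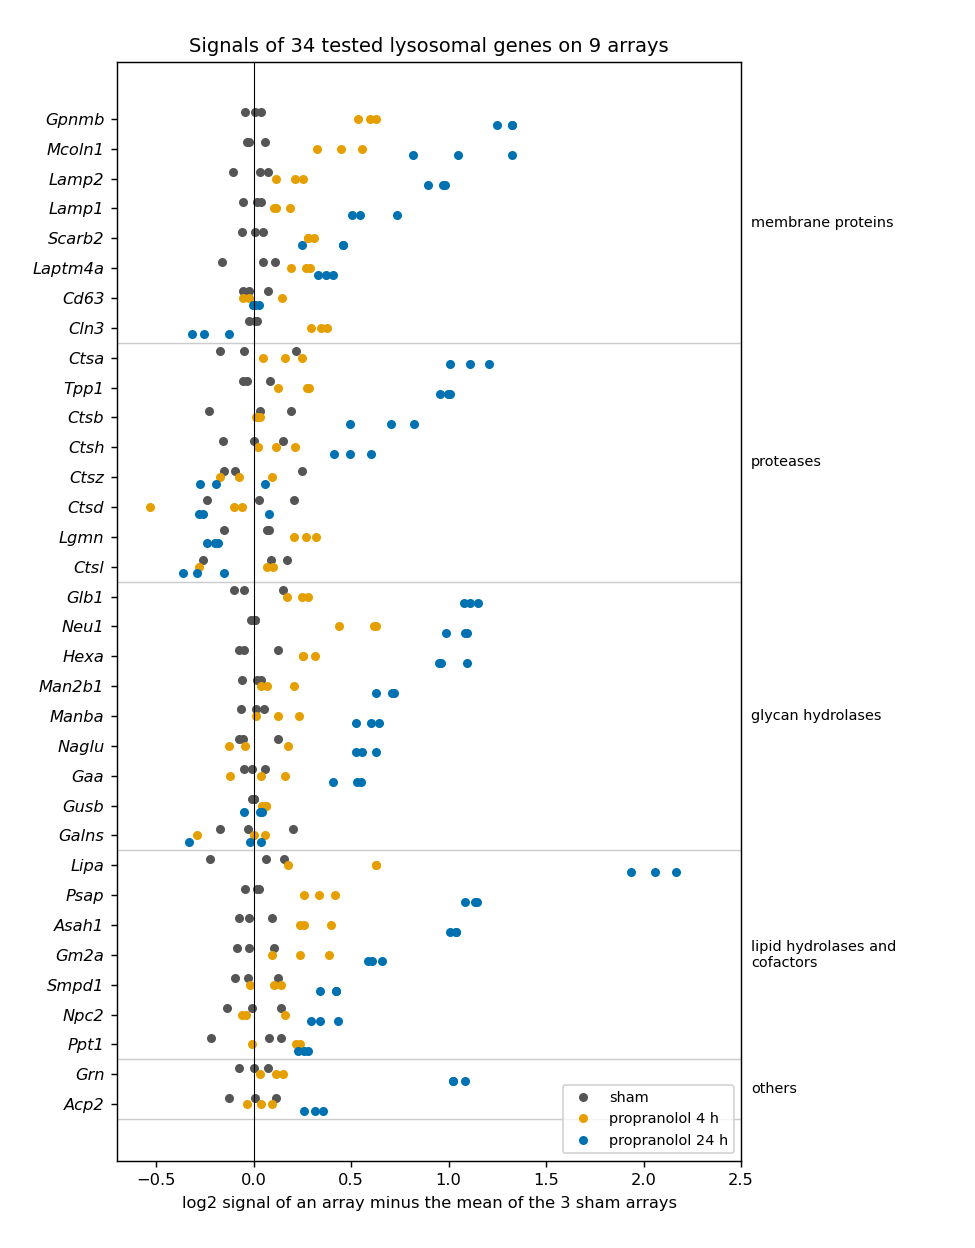
Log2 signal of each of the 34 tested genes on each array, minus the mean of the 3 sham arrays of that gene (x axis), with genes grouped by role (y axis) and 1 point per array. For 26 genes all 24 h arrays lie above all sham arrays, for 2 (Cln3 and Lgmn) all lie below, and for 6 the groups overlap.

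Of the 8 membrane proteins, 4 were higher at 24 h (Gpnmb, Mcoln1, Lamp2 and Lamp1), where 13.6% of all genes were. Gpnmb, a transmembrane glycoprotein of lysosomes and melanosomes, had log2 signals of 10.25, 10.17 and 10.22 in sham, 10.81, 10.84 and 10.75 at 4 h, and 11.54, 11.46 and 11.54 at 24 h. The groups did not overlap, and the order was sham, 4 h, 24 h on every array. The change at 24 h was 1.30 ± 0.06 on the log2 scale (SE, n = 3 arrays a group here and below), or 2.46-fold, with an adjusted p of 6.2e-08.

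Mcoln1, which encodes mucolipin 1, a channel that releases calcium from the lysosome, had log2 signals of 7.24, 7.25 and 7.33 in sham, 7.60, 7.83 and 7.72 at 4 h, and 8.09, 8.60 and 8.32 at 24 h. Again the groups did not overlap, and the 24 h arrays were spread more widely than the sham arrays. The increase at 24 h was 1.06 ± 0.12 (2.09-fold, adjusted p = 2.3e-05).

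Lamp2, a heavily glycosylated protein of the lysosomal membrane that also serves in autophagy, stood at 10.01, 10.05 and 9.87 in sham, 10.09, 10.23 and 10.19 at 4 h, and 10.96, 10.95 and 10.87 at 24 h. The 24 h arrays were well apart from the other 6, and the 4 h arrays lay only just above sham. Its change was 0.95 ± 0.07, or 1.93-fold (adjusted p = 1.6e-06).

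Lamp1, the companion of Lamp2 and the gene with 4 cores in its window, was at 12.56, 12.49 and 12.58 in sham, 12.73, 12.66 and 12.65 at 4 h, and 13.28, 13.09 and 13.05 at 24 h. All 24 h arrays were above the rest, although the change of 0.59 ± 0.07 (1.51-fold, adjusted p = 5.3e-05) only just reached the 1.5-fold limit. It fell short of that limit in the table as the authors normalized it (0.41) and with normexp background correction and median centring (0.32). The same held after division of arrays by their 75th percentile, where it was 0.26. It was also short of the limit without the second sham array (0.57) or the first 24 h array (0.52).

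The other 4 membrane proteins were not called at 24 h. Scarb2, the receptor that carries glucocerebrosidase to lysosomes, and Laptm4a, a small protein with several membrane spans, passed the adjusted p at changes of 0.39 and 0.37, which are under 1.5-fold. The tetraspanin Cd63 was level, with log2 signals from 13.61 to 13.74 in sham and from 13.66 to 13.69 at 24 h. Cln3, whose loss causes a juvenile form of neuronal ceroid lipofuscinosis, was the 1 membrane protein with all 24 h arrays below sham, at 8.70, 8.57 and 8.51 compared with 8.83, 8.80 and 8.84. That difference of -0.23 ± 0.07 had an adjusted p of 0.012 and was under 1.5-fold, and the adjusted p was 0.062 in the authors' normalized table.

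Among the proteases 3 of 8 tested genes were higher at 24 h (all genes, 13.6%), while Ctsd, Ctsl, Ctsz and Lgmn were not among them. Ctsa, a serine carboxypeptidase that also shields beta-galactosidase and sialidase from breakdown in a shared complex, had log2 signals of 8.01, 8.40 and 8.13 in sham, 8.23, 8.34 and 8.43 at 4 h, and 9.29, 9.39 and 9.19 at 24 h. The 4 h arrays overlapped with sham while the 24 h arrays were above both. Its change at 24 h was 1.11 ± 0.10 (2.16-fold, adjusted p = 7e-06).

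Tpp1, a peptidase that takes tripeptides from the ends of proteins, was at 6.78, 6.64 and 6.66 in sham, 6.97, 6.82 and 6.98 at 4 h, and 7.65, 7.70 and 7.69 at 24 h. The 24 h arrays agreed closely and stood clear of the others, giving a change of 0.98 ± 0.07 (1.98-fold, adjusted p = 1e-06).

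Ctsb, a cysteine protease, was noisier, with 10.75, 10.91 and 10.49 in sham, 10.73, 10.75 and 10.74 at 4 h, and 11.42, 11.54 and 11.21 at 24 h. No 24 h array reached down to sham, and the change was 0.67 ± 0.11 (1.60-fold, adjusted p = 0.00046). Leaving out the third sham array lowered it to 0.56, under the 1.5-fold limit, as did normexp with median centring (0.53) and the 75th percentile (0.45).

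The other 5 tested proteases were not called. The aminopeptidase Ctsh passed the adjusted p (0.00085) at a change of 0.50. The aspartic protease Ctsd gave log2 signals of 5.75, 5.57 and 5.30 in sham and 5.26, 5.62 and 5.28 at 24 h, which overlap (change -0.15 ± 0.15, adjusted p = 0.42). The cysteine proteases Ctsl (-0.26 ± 0.13, adjusted p = 0.11) and Ctsz (-0.13 ± 0.12, adjusted p = 0.38) overlapped between the groups too. The signals of Ctsd and Ctsl were close to background, at 105 to 135 and 103 to 121 before correction on sham and 24 h arrays, so a change there would be hard to see.

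Lgmn, which cuts after asparagine and matures several cathepsins, had all 24 h arrays (10.33, 10.31 and 10.27) below all sham arrays (10.58, 10.36 and 10.59). The change of -0.20 ± 0.07 was small, with an adjusted p of 0.036, and did not pass without the first sham array (adjusted p = 0.11) or the third (adjusted p = 0.12). Ctsd, Ctsl, Lgmn and Cln3 all carry the core in the windows printed above.

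The glycan hydrolases gave 5 of 9 tested genes higher at 24 h (all genes, 13.6%). Glb1, beta-galactosidase, had log2 signals of 7.95, 8.15 and 7.90 in sham, 8.25, 8.28 and 8.17 at 4 h, and 9.15, 9.11 and 9.08 at 24 h. The 24 h arrays were tight and far above the rest, with a change of 1.11 ± 0.08 (2.16-fold, adjusted p = 8.5e-07).

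Neu1, the sialidase that works in the complex with Ctsa and Glb1, had sham arrays at 10.12, 10.14 and 10.14, and stood at 10.57, 10.76 and 10.75 at 4 h and 11.22, 11.23 and 11.12 at 24 h. No group overlapped with another, and the change at 24 h was 1.06 ± 0.07 (2.09-fold, adjusted p = 6.8e-07). The changes of Ctsa, Glb1 and Neu1 at 24 h lay within 1 standard error of one another, on probes whose levels cannot be compared. Members outside the complex had similar changes, such as Psap (1.12), Mcoln1 (1.06) and Grn (1.05). At 4 h the changes of Ctsa, Glb1 and Neu1 were 0.16, 0.23 and 0.56.

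Hexa, the alpha subunit of beta-hexosaminidase, was at 9.84, 9.81 and 10.01 in sham, 10.14, 10.20 and 10.14 at 4 h, and 10.85, 10.98 and 10.84 at 24 h. Each group lay above the one before it, and the change at 24 h was 1.00 ± 0.07 (2.00-fold, adjusted p = 1.3e-06).

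The mannosidases changed less. Man2b1, alpha-mannosidase, was 9.65, 9.55 and 9.63 in sham and 10.32, 10.24 and 10.33 at 24 h, a change of 0.69 ± 0.07 (1.61-fold, adjusted p = 1.1e-05), which was under 1.5-fold with normexp and median centring (0.57) and with the 75th percentile (0.47). Manba, beta-mannosidase, was 8.91, 8.83 and 8.95 in sham and 9.50, 9.42 and 9.54 at 24 h, a change of 0.59 ± 0.07 (1.51-fold, adjusted p = 6.4e-05). Both were above sham on every 24 h array, and Manba was so near 1.5-fold that the call was lost in 4 other ways of normalizing, as given in the closing section. It was also lost without the second sham array (0.56), the first 24 h array (0.58) or the third (0.56).

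The other 4 tested glycan hydrolases were not called. Naglu, which acts on heparan sulfate, had a change of 0.57 ± 0.09 (adjusted p = 0.00029) just under the limit, and 0.29 when no background was removed. It passed the limit without the first sham array (0.64) or the second 24 h array (0.60). Gaa, which breaks down glycogen, had 0.49 (adjusted p = 0.00042), also with all 24 h arrays above sham. Gusb, beta-glucuronidase, often used as a reference gene, was level on its brightest probe, at 10.85, 10.86 and 10.86 in sham and 10.90, 10.89 and 10.81 at 24 h. The sulfatase Galns (-0.10 ± 0.13, adjusted p = 0.52) was dim and overlapped between the groups.

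The lipid hydrolases and their cofactors held Lipa, whose change was the largest of the members with the background step, and all 7 tested members had their 24 h arrays above sham. Of these, 4 were called higher (Lipa, Psap, Asah1 and Gm2a). Over all genes, 33.1% had 24 h arrays wholly above sham and 13.6% were called higher. Lipa, the acid lipase that frees fatty acids and cholesterol from lipoprotein lipids, had log2 signals of 5.28, 5.57 and 5.66 in sham, 6.13, 6.13 and 5.68 at 4 h, and 7.44, 7.67 and 7.56 at 24 h. The 24 h arrays were far above the other 6, and the third 4 h array was close to sham. The change at 24 h was 2.05 ± 0.14 (4.15-fold, adjusted p = 7e-07). Because the sham signals, 107 to 131 before correction, were close to background, the size depends on the background step: without it the change was 1.14, which still passed but was smaller than that of Gpnmb (1.25).

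Psap, the precursor of the saposins that present sphingolipids to their hydrolases, was bright, at 11.84, 11.85 and 11.78 in sham, 12.16, 12.08 and 12.24 at 4 h, and 12.91, 12.96 and 12.97 at 24 h. The 3 groups were apart on all arrays, and the change at 24 h was 1.12 ± 0.06 (2.17-fold, adjusted p = 2.4e-07).

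Asah1, acid ceramidase, was at 11.28, 11.40 and 11.23 in sham, 11.54, 11.56 and 11.70 at 4 h, and 12.34, 12.34 and 12.31 at 24 h. Its 24 h arrays agreed closely and no group overlapped with another, and the change was 1.02 ± 0.07 (2.03-fold, adjusted p = 7.5e-07). Gm2a, the activator that lifts ganglioside GM2 to hexosaminidase, was 7.17, 7.23 and 7.36 in sham and 7.91, 7.84 and 7.86 at 24 h. Its change was 0.62 ± 0.08 (1.53-fold, adjusted p = 0.00011). That change was under the 1.5-fold limit without the background step (0.45), in the authors' normalized table (0.57) and without the first sham array (0.58).

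Smpd1 (acid sphingomyelinase, 0.39) and Npc2 (a carrier of cholesterol in the lumen, 0.36) passed the adjusted p below 1.5-fold. Ppt1, which takes palmitate from proteins, had a change of 0.26 ± 0.10 and an adjusted p of 0.052. For these 3 the 24 h arrays were above sham, by small steps.

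Of the remaining genes, Grn, the precursor of progranulin, which is cut to granulins in lysosomes, was higher at 24 h. Its log2 signals were 11.80, 11.88 and 11.95 in sham, 11.91, 12.03 and 11.99 at 4 h, and 12.90, 12.90 and 12.96 at 24 h. The 4 h arrays overlapped with sham and the 24 h arrays were separate, with a change of 1.05 ± 0.07 (2.06-fold, adjusted p = 4.5e-07). Acp2, lysosomal acid phosphatase, had a change of 0.31 ± 0.08 (adjusted p = 0.0051). Tfeb was above background on no array with either of its 2 probes, with signals of 77.0 to 99.8 before correction, so its transcript level cannot be followed here.

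**Figure D2:**
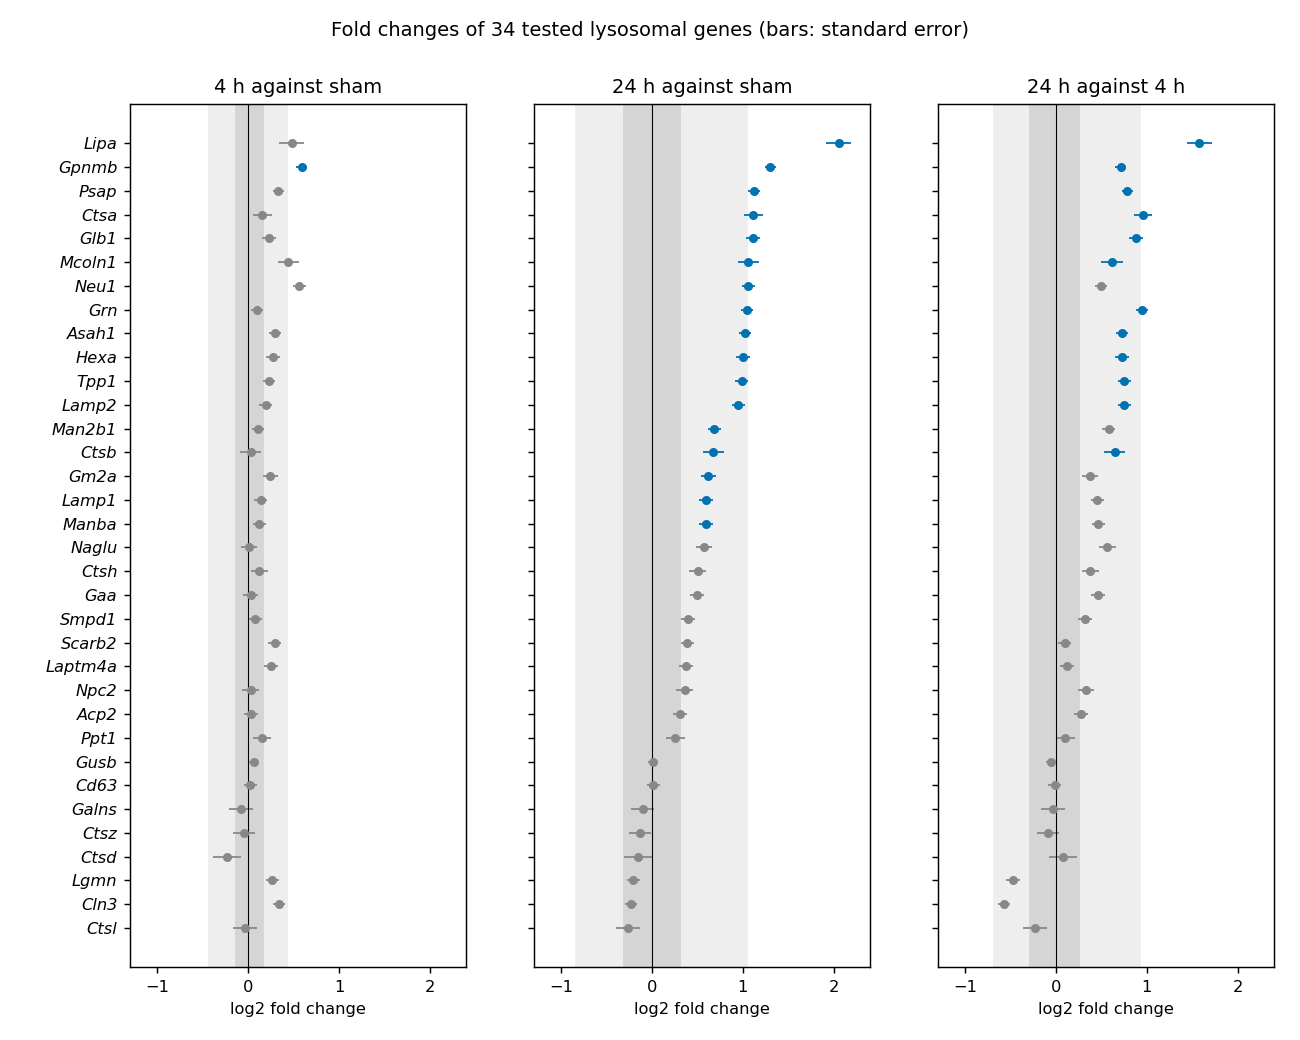
Log2 fold change of the 34 tested genes (x axis, with the standard error as a bar) in the comparisons of 4 h with sham, 24 h with sham and 24 h with 4 h, ordered by the change at 24 h. Blue points were called, grey points were not, and the dark and light bands hold the middle 50% and 90% of all tested genes. The called genes number 1, 17 and 12, all of them higher.

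After 4 h few lysosomal genes had moved far from sham. Gpnmb alone was called, with a change of 0.59 ± 0.06 (just past the 1.5-fold limit, adjusted p = 0.00013), which is 1 of 34 members (2.94%) beside 2.05% of all genes called higher and 2.01% lower. It was under 1.5-fold without the background step (0.56), and the count was 0 without the second sham or the second 4 h array and 2 without the third 4 h array. Neu1 came next at 0.56 ± 0.07 (1.48-fold, adjusted p = 0.00043), short of the limit. With the adjusted p alone, 12 members were higher and 0 lower, where 13.1% and 11.5% of all genes passed. The 4 h arrays lay wholly above sham for 16 members and wholly below for 0 (all genes, 22.9% and 19.3%), and at 2-fold none was called (all genes, 0.351% and 0.364%). The median change was 0.14 over the members and 0.01 over all genes.

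Over all genes 13.1% passed the adjusted p higher at 4 h and 11.5% lower. By role, 5 of 8 membrane proteins passed it at 4 h (Gpnmb, Mcoln1, Cln3, Scarb2 and Laptm4a), and 3 of 7 lipid genes did (Lipa 0.48, Psap 0.33 and Asah1 0.29). Of the glycan hydrolases 2 of 9 passed (Neu1 and Hexa, at 0.27), and of the proteases 2 of 8 (Lgmn 0.27 and Tpp1 0.23). Grn and Acp2 did not pass, at 0.10 and 0.03. Among the genes called at 24 h, Ctsa (0.16), Ctsb (0.03), Grn (0.10), Man2b1 (0.11), Manba (0.12) and Gm2a (0.24) had 4 h arrays that overlapped with sham.

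**Figure D3:**
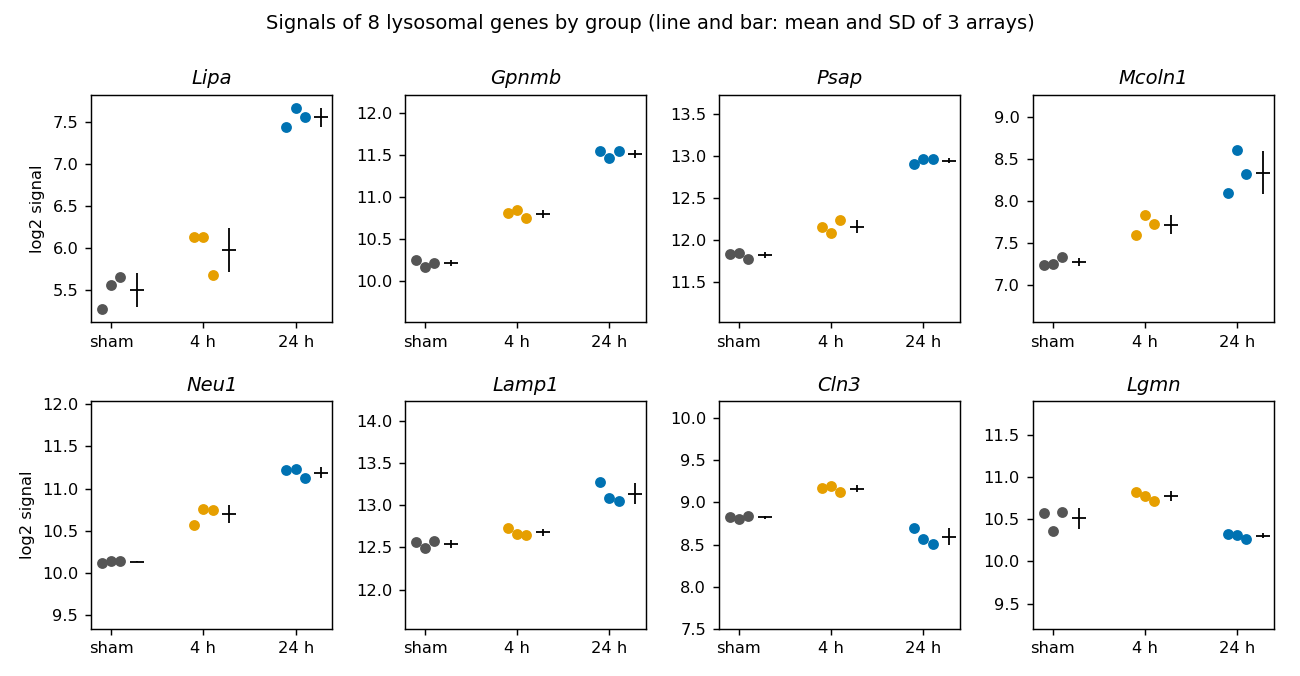
Log2 signal (y axis, a different range in each panel) of 8 lysosomal genes on the arrays of sham, 4 h and 24 h, with 1 point per array and the mean and SD of 3 arrays beside each group. Lipa, Gpnmb, Psap, Mcoln1, Neu1 and Lamp1 step up from group to group, and Cln3 and Lgmn are highest at 4 h and lowest at 24 h.

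Compared directly, 24 h with 4 h, 12 of 34 members (35.3%) were higher and none lower, where 10.6% of all genes were called higher and 7.4% lower. At 2-fold this was 1 higher and 0 lower (all genes, 4.39% and 1.17%). With the adjusted p alone it was 23 higher and 2 lower (all genes, 26.2% and 28.7%), and the arrays did not overlap for 24 members above and 3 below (all genes, 29.5% and 33%). The median difference was 0.46 over the members and -0.04 over all genes. Lipa differed by 1.58 ± 0.14 (2.98-fold, adjusted p = 6.8e-06), Ctsa by 0.96 ± 0.10 and Grn by 0.95 ± 0.07. The value of Lipa, the 1 member past 2-fold here, was 0.94 without the background step, where Grn had 0.93. The others called were Glb1, Psap, Lamp2, Tpp1, Asah1, Hexa, Gpnmb, Ctsb and Mcoln1. After division of arrays by their 75th percentile, with no background removed, 4 members were called higher and 1 lower. Of all 7969 genes, 384 (4.82%) were called higher and 431 lower in that setting.

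Neu1, Man2b1, Lamp1, Manba and Gm2a, called at 24 h against sham, were not called between the 2 time points. Their differences were 0.50, 0.58, 0.46, 0.47 and 0.38, under the 1.5-fold limit. Scarb2 (0.10), Laptm4a (0.12) and Ppt1 (0.11) did not pass the adjusted p between the time points.

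Cln3 and Lgmn ran the other way. Cln3 stood at 9.17, 9.20 and 9.12 at 4 h, above all sham arrays, and then below them at 24 h. It was 0.34 ± 0.07 higher than sham at 4 h (adjusted p = 0.0051) and fell by 0.57 between 4 h and 24 h (adjusted p = 4.9e-05), which is 0.67 of the 4 h signal and just under a 1.5-fold change. Lgmn was at 10.83, 10.78 and 10.72 at 4 h, 0.27 ± 0.07 above sham (adjusted p = 0.028), and fell by 0.47 to 24 h (adjusted p = 0.0004). They were the only members of which the adjusted p passed in the downward direction between 4 h and 24 h.

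Several members were read by more than 1 probe. Of the 9 genes with several tested probes, the probes gave different calls at 24 h in 2 (Gpnmb and Asah1) and opposite calls in 0. All 4 probes of Lamp2 were called higher, at 0.95, 0.78, 0.98 and 0.81, and so were all 4 of Ctsa, at 1.11, 0.67, 0.68 and 0.98. The dimmer Ctsa probes were near background, with signals of 92 to 118, 97 to 144 and 92 to 130 before correction. The last of these was above background on 2 of 3 sham arrays. Both probes of Manba were called too, at 0.59 and 0.80.

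In Asah1 the brightest probe gave 1.02 and the other 0.43 (adjusted p = 0.00067, under 1.5-fold). Gpnmb was higher on its brightest probe and on a second one (1.11), while the third was above background only on 24 h arrays, so that the value plotted for it compares with signals not above background and is no fold. The probes of Cd63 (0.01, -0.11 and -0.03) and of Ctsz (-0.13 and -0.15) did not pass. Gusb was level on 2 probes (0.01 and -0.03) and lower on the other (-0.55, adjusted p = 0.00011), under 1.5-fold. Which transcripts of Gusb or Asah1 each probe reads was not analysed here.

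**Figure D4:**
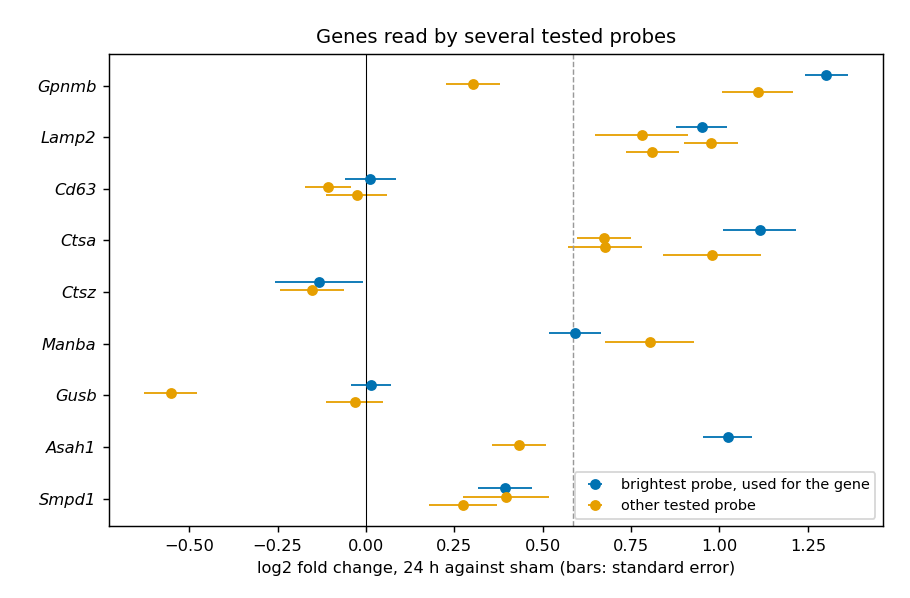
Log2 fold change at 24 h against sham (x axis, with the standard error as a bar) of every tested probe of the 9 lysosomal genes with several tested probes. The brightest probe, from which a gene is read, is blue, the others are orange, and the dashed line marks 1.5-fold. The probes of Lamp2 and Ctsa lie together above the line, while those of Gpnmb, Asah1 and Gusb are spread.

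The core of the promoters printed above was found among called and uncalled members. Of 15 genes called higher at 24 h with a window, 4 held it (Ctsa, Glb1, Lamp1 and Mcoln1). Of 15 tested genes with a window that were not called, 6 held it (Cln3, Ctsd, Ctsl, Gaa, Lgmn and Naglu), as did 1 of the 5 untested genes (Sgsh). Lipa, Gpnmb, Psap and Grn, 4 of those with changes above 1, held none in their windows. A gene with several windows was counted when any of them held the core. The windows of Man2b1 and Cd63, which held none, lie wholly inside the annotated gene, so the outer ends of these genes were not searched. These are counts over windows of 300 bases around annotated starts and draw on no measure of binding.

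Genes outside the 39 show how other lysosomal functions moved. Of 14 tested among 30 further lysosomal enzymes, 4 (28.6%, where all genes had 13.6%) were higher at 24 h and 0 lower, with a median of 0.44. Gla and Arsg, neither of them called, entered the list through the 24 h group, where they are high. They were above background on 0 and 1 of the 3 sham arrays. The median includes both, and the change of Gla is only a bound, at least 1.06-fold. Idua, the iduronidase of heparan and dermatan sulfate breakdown, was 6.36, 6.21 and 6.28 in sham, 6.79, 6.95 and 6.87 at 4 h, and 8.15, 8.15 and 7.98 at 24 h, a change of 1.81 (adjusted p = 3.1e-08). The hyaluronidase Hyal1 changed by 1.60 and the nuclease Dnase2a by 1.08. Without the background step these changes were 1.20, 0.80 and 0.51, the last under 1.5-fold, and the list had 2 genes called and a median of 0.24. In that setting 7.69% of all genes were called higher, with a median of -0.01. No array at 24 h reached down to sham for any of these 3.

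Of 22 tested among 30 further membrane proteins, 7 (31.8%, where all genes had 13.6%) were higher at 24 h and 0 lower, with a median of 0.37. At 4 h 3 were called (13.6% of the list, where all genes had 2.05%). Without the background step 5 and 1 were called at 24 h and 4 h, where all genes had 7.69% and 0.70%. Laptm4b, Abcb9 and Slc36a1 were above background on all 3 arrays only at 24 h, and so entered the list through that group. None of them was called, but the median of 0.37 includes them. Ctns, which exports cystine from lysosomes, was 6.61, 6.65 and 6.70 in sham, 7.91, 7.80 and 7.83 at 4 h, and 8.50, 8.59 and 8.67 at 24 h. It was thus already 1.19 higher at 4 h (adjusted p = 2.8e-06) and 1.93 higher at 24 h (adjusted p = 8.8e-09). Clcn7, a chloride and proton exchanger, and Ostm1, its partner subunit, were called at 4 h (0.61 and 0.60) and at 24 h (0.99 and 1.21). At 4 h both were under 1.5-fold without the background step (0.44 and 0.55). The heme transporter Slc48a1 was higher at 24 h by 1.00.

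Among the MiT/TFE factors and the proteins that control them at the lysosome, 9 of 17 were tested and 2 (22.2%) were higher at 24 h and at 4 h alike, where all genes had 13.6% and 2.05%. Flcn, folliculin, was 9.10, 9.01 and 9.06 in sham, 9.86, 9.94 and 9.98 at 4 h, and 9.74, 9.78 and 9.74 at 24 h. Its partner Fnip1 was 8.71, 8.80 and 8.58 in sham, 9.62, 9.44 and 9.55 at 4 h, and 9.68, 9.54 and 9.66 at 24 h. Both were thus near their 24 h signal by 4 h, with changes at 4 h of 0.87 (adjusted p = 1.1e-05) and 0.84 (adjusted p = 8e-05), and neither was called between 4 h and 24 h. Tfe3 was 0.32 higher at 4 h (adjusted p = 0.023) and 0.38 at 24 h (adjusted p = 0.0032), under 1.5-fold, and Mitf and Tfec were not tested.

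**Figure D5:**
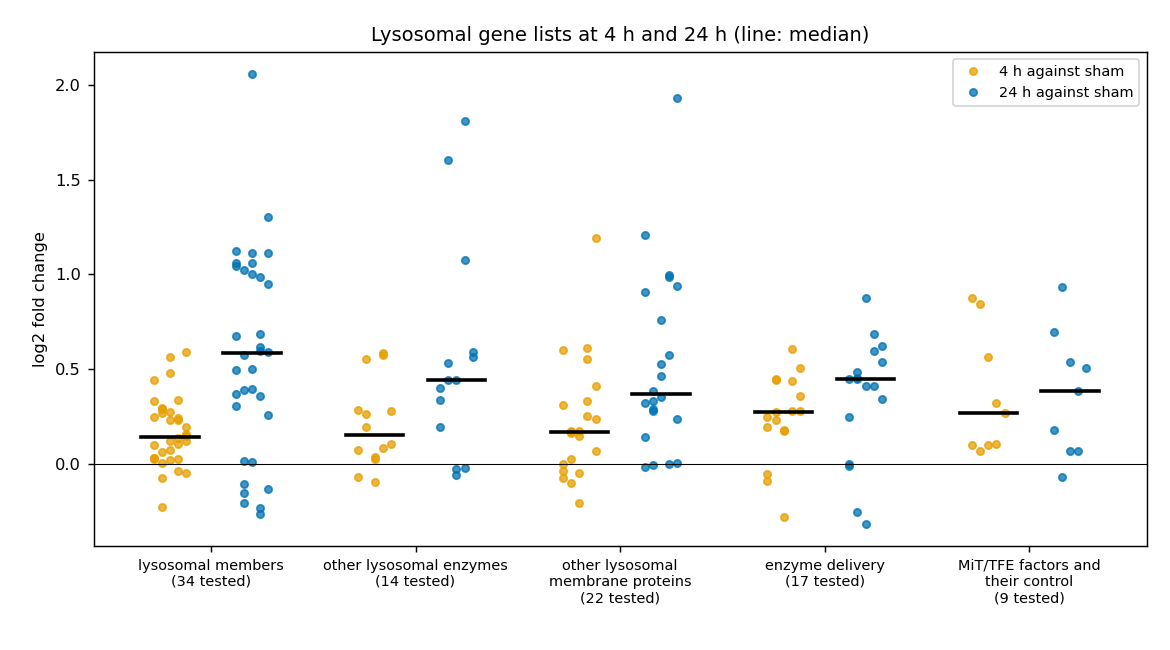
Log2 fold change against sham (y axis) of each tested gene in the 39-gene set and in 4 other lysosomal lists (x axis), at 4 h in orange and at 24 h in blue, with a line at the median. The median of the members moves from 0.14 to 0.58 between the time points, while that of the MiT/TFE factors and their control moves from 0.27 to 0.38. The points include Gla, Arsg, Laptm4b, Abcb9 and Slc36a1, which were above background on all 3 arrays only at 24 h.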

How the data were processed

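Per the file headers, the deposited scanner table holds, for each probe and array, an intensity (the mean brightness of its beads), its standard error, the number of beads and a detection p-value. A second deposited table holds the same intensity values multiplied by the authors by 1 constant per array which equalises the array means, and the series matrix repeats it exactly. RNA was amplified, labelled with biotin and scanned on an Illumina iSCAN. The sources used here name neither a genome build nor the scanner software.

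Intensities were background corrected with the detection p-values, quantile normalized and put on the log2 scale (neqc, offset 16; limma 3.58.1, R 4.3.3). Probes with a detection p under 0.05 on all 3 arrays of a group (11653 of 25697) were fitted with lmFit and eBayes over all 9 arrays, and p-values were adjusted by Benjamini-Hochberg over all of them. Each gene was read from its brightest tested probe. The methods' analysis of variance was run as an alternative. Probes were named by the platform annotation, updated through gene numbers (23962 of 25697). Member probes rested on 17 to 69 beads, with a median bead error of 3.97% (these cover the measurement on 1 array only). The script was tested on simulated data.

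The members and lists were chosen with earlier results of these data known. Named genes were, in each role group, up to 5 called members with the largest change at 24 h, every member called lower at 24 h or called at 4 h, and Lamp1, Lamp2, Ctsd and Tfeb in any case, with the other members given by their change, and in other lists up to 3 called genes. Named genes outside this rule (Clcn7, Tfe3, Gnptg, Cst3) were chosen after their values were seen.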

Additional observations from a re-analysis of the deposited data

Results flagged for a closer look

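The change from sham differed between the 2 time points in 12 of 34 tested lysosomal genes (35.3%). This was by the direct test of 24 h against 4 h with at least 1.5-fold. All 12 were higher at 24 h, where 10.6% of all genes were called higher and 7.4% lower. For all 12 the 24 h arrays lay wholly above the 4 h arrays, which was so for 29.5% of all genes. On the log2 scale the difference was 1.58 for Lipa, 0.96 for Ctsa, 0.95 for Grn, 0.88 for Glb1 and 0.79 for Psap. It was 0.76 for Lamp2, 0.75 for Tpp1, 0.73 for Asah1 and 0.73 for Hexa. It was 0.71 for Gpnmb, 0.65 for Ctsb and 0.62 for Mcoln1. All 12 had adjusted p-values under 0.05 (limma), from 1.3e-06 for Grn to 0.0012 for Mcoln1. Without the array on the second BeadChip 12 members were called as well.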

How the results depend on the processing

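The count of members higher at 24 h against sham was 17 and stayed between 12 and 17 in the other normalizations, filters, probe choices and fits, was 10 at 2-fold, and was 15 to 18 when 1 array was left out. None were called lower in any of them. The share of all genes called higher was 13.6%, against 9.32% in the authors' normalized table and 14.3% with normexp and median centring. It was 7.69% without background correction and 6.39% with the 75th percentile as well. The median change of 0.58 was 0.49 in the authors' normalized table, 0.50 with normexp and median centring, 0.45 without background correction, 0.33 with arrays divided by their 75th percentile as well, and 0.49 with no filter on dim probes, which adds the 5 undetected members. It was 0.53 to 0.60 when 1 array was left out. The median over all genes was -0.02, against 0.08 in the authors' table and -0.01 with normexp and median centring. Without background correction the all-gene median was -0.01, and with the 75th percentile as well it was -0.08. The single call at 4 h became 0 in the authors' table, with normexp and median centring, with either setting without background correction, with averaged probes, with the second-brightest probe and at 2-fold. It was 0 to 2 when 1 array was left out (0 without the second sham or the second 4 h array, 2 without the third 4 h array). Over all genes 2.05% were called higher at 4 h, against 0.72% in the authors' table and 1.95% with normexp and median centring. Without background correction the share was 0.70%, and with the 75th percentile as well 0.67%. For 24 h against 4 h, 12 higher and 0 lower became 4 higher and 1 lower with the 75th percentile and 1 higher at 2-fold. With the 75th percentile the share of all genes called higher was 4.82%, against 10.6% in the main setting. Leaving out 1 array gave 12 to 13 higher and 0 to 1 lower (1 without the third 4 h or the first 24 h array).

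Manba was under 1.5-fold at 24 h in the authors' table (0.58), with normexp (0.55), without background correction (0.53) and with the 75th percentile (0.42). Lamp1, Gm2a, Ctsb, Man2b1 and Asah1 also lost the call in some settings and Naglu gained it in some. No direction of a called gene reversed. Of all genes called at 24 h, 55.2% were higher, but 65.7% in the authors' table and 42.1% with the 75th percentile, and of those called between 4 h and 24 h 58.8% were higher, but 74.5% and 47.1%. The cause was not tested.

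Replicate numbers did not pair the arrays: 0 of 9 same-numbered pairs deviated together with a correlation over 0.1, and 0 of 9 arrays correlated best with their own number. With the replicate block the counts were 17 at 24 h, 1 at 4 h and 12 between the time points. Signals near background limit Ctsd, Ctsl, Galns and Lipa in sham.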

Other observations

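Of 17 tested genes of the machinery that delivers enzymes to lysosomes, 4 (23.5%, where all genes had 13.6%) were called higher at 24 h and 0 lower, with a median of 0.45. They were Sort1 (sortilin, an alternative sorting receptor, 0.88), Vps11 (0.69), Vps35 (0.62) and Gnptg (0.59). None of the 4 reached 1.5-fold without the background step. The mannose 6-phosphate receptor M6pr had 0.00 (adjusted p = 0.99), Igf2r, the other such receptor, had 0.34 (adjusted p = 0.005), and Gnptab, a subunit of the enzyme that makes the mannose 6-phosphate tag, had -0.31 (adjusted p = 0.0039), under 1.5-fold. Those 3 were chosen after their values were seen.

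The cystatins, inhibitors of cysteine cathepsins, had 2 of 4 genes tested. Cstb was higher at 24 h by 0.64 (adjusted p = 5.3e-06), and Cst3 had 0.19 (adjusted p = 0.029). Of the myeloid markers, Cd14 was higher at 24 h by 0.65 (adjusted p = 0.00038), from signals near background (111 to 143 in sham), and the change was 0.31, under 1.5-fold, without the background step.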
